A study of Mus musculus with 11 samples.

Results

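The miR-297, miR-466, miR-467 and miR-669 families are rodent microRNAs (miRs), most of which are encoded in an intron of the mouse gene Sfmbt2. Their 18 assays were taken by name from the 517 miR assays of a PCR panel, counting every letter, arm and star form. The panel was run on whole-aorta RNA of 11 apoE-/- females, mice that lack apolipoprotein E and are prone to atherosclerosis, with 1 mouse per sample. The control group was 4 mice on a normal diet, with aortas described as free of atherosclerosis. A high fat diet was given to 4 mice for 3 months and to 3 mice for 10 months, and both groups are described as having atherosclerotic aortas. The diet contained 21% crude fat, 19.5% casein and 0.15% cholesterol. All groups carry the label of 6 to 8 weeks of age, and the time for which the controls were kept is not stated, so that diet time and age cannot be told apart. For the 10-month group one label gives 3 months of diet, and the sample titles were followed.

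Sfmbt2 encodes a Polycomb-group protein and is imprinted in the mouse, with expression from the paternal allele in the early embryo and the placenta. The intron holds many near-identical miR copies that grew out of simple repeats, and deletion of the cluster in mice disturbs placental development. Of the families measured here, miR-467 has been reported to repress the anti-angiogenic matrix protein thrombospondin-1 in endothelial cells exposed to high glucose. miR-669a has been reported to hold back skeletal muscle differentiation in mouse heart progenitor cells. A star in an assay name marks the strand of the hairpin once taken to be the minor one.

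In the gene table of assembly GRCm38.p6, 82 miR genes belong to these 4 families. Of them, 72 lie within Sfmbt2, and no miR gene of another family lies within it. All 18 assays matched a gene by name. 17 matched only copies within Sfmbt2, and miR-297a* matched 3 copies there and 1 elsewhere. miR-467a and miR-467a* stand for 10 gene copies and miR-669a for 12, whereas 13 assays match a single gene. Copies of one name were measured together, and how far an assay also reads near-identical names was not tested.

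The repeat character of the families is illustrated by RefSeq sequences (GRCm38.p6) of chosen relatives encoded outside Sfmbt2. Capitals mark runs of at least 6 alternating U and G. The 4 mature miRs are not among the 517 assays, and the hairpin is the copy of miR-297a that lies elsewhere.
miR-466k (chr3:85467396-85467418, plus strand): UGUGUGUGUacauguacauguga
miR-466j (chr10:60960802-60960824, plus strand): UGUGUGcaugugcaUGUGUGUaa
miR-467h (chr9:115381898-115381919, plus strand): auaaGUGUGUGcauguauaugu
miR-669n (chr3:115979905-115979924, plus strand): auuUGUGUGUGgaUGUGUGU
mir-297-1 hairpin (chr7:10958437-10958512, minus strand): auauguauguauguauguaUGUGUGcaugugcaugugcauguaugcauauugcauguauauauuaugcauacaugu
The 5 were picked by name as examples among the relatives outside Sfmbt2, where 10 family genes lie. No share of the families with a run was counted. All 5 hold such a run, the longest being 9 bases in miR-466k. Of 1679 mature mouse miRs in the table, 32 (1.91%) hold one. Of the 517 assays, 24.0% matched a mature sequence by name, and 1 of those held a run, miR-291a-3p of the embryonic miR-290 to miR-295 cluster, and it was detected in 2 of 11 mice. Mature sequences of the 18 assayed miRs were not used here, and they were therefore not grouped by seed.

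A threshold cycle is the PCR cycle at which a product is seen, so an earlier cycle stands for more template. A well was called detected below 35 cycles, and a deposited value of 40 stands for no amplification. Each level is a log2 value set against the array mean, taken over 285 miRs that no mouse lacked, and a doubling per cycle was assumed. Between 322 and 380 of 517 assays were detected per mouse. The mean cycle of the 285 miRs ran from 23.2 to 26.9 and was latest in 10-month replicate 2. miR-145, abundant in contractile smooth muscle, had the highest mean level of the panel in control aortas, and the endothelial miR-126-3p ranked 4.

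The Sfmbt2 families were read in every aorta, in some or in none, in equal numbers of assays. Of the 18 assays, 6 were detected in all 11 mice, namely miR-467a, miR-467b, miR-467d, miR-669a, miR-467a* and miR-467b*. Another 6 were detected in some mice (miR-297a*, miR-297b-5p, miR-297c, miR-466d-3p, miR-467c and miR-467e). The last 6 were detected in none, namely miR-466a-3p, miR-466b-3-3p, miR-466c-5p, miR-466d-5p, miR-466h and miR-467e*, and all of their wells read 40. Over the whole panel 55.1% of assays were detected in all mice and 19.3% in none, against 33.3% for both shares here. By family, 5 of 8 miR-467 assays were detected in all mice, against 0 of 6 for miR-466 and 0 of 3 for miR-297, and the single miR-669 assay was detected in all. The panel has 2 blocks of assays. In the first 58.8% of all assays were detected in all mice and 16.7% in none, in the second 48.4% and 24.2%. Each block holds 9 of the 18 assays. Of these, 4 were detected in all mice and 1 in none in the first block, and 2 and 5 in the second. Most miR-466 assays lie in the second block and most miR-467 assays in the first, so family and block were not told apart. The number of the 18 detected per mouse was 11, 9, 9 and 9 in controls, 10, 8, 11 and 9 at 3 months and 10, 10 and 9 at 10 months. These counts overlapped between the 3 groups.

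**Figure D1:**
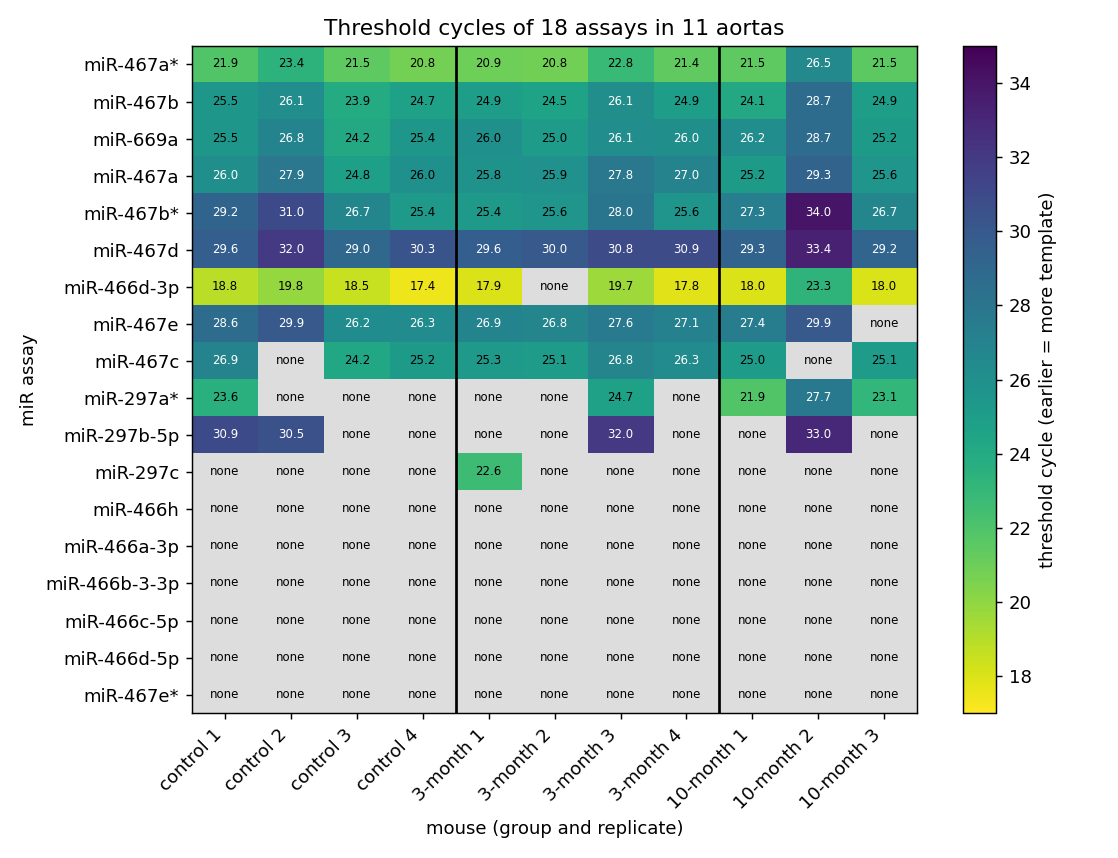
Threshold cycle of each of the 18 assays (vertical axis) in each of the 11 mice (horizontal axis, with black lines between the groups). Colour and printed value give the cycle, and grey cells marked none are wells at 40. 6 rows are filled in all mice and 6 rows are grey throughout, while miR-466d-3p, miR-467c and miR-467e have 1 or 2 grey cells among early cycles.

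Blank wells stood beside early ones in several of these assays. miR-466d-3p read between 17.4 and 23.3 cycles in 10 mice and 40 in 3-month replicate 2. miR-467c read between 24.2 and 26.9 cycles in 9 mice and 40 in control replicate 2 and 10-month replicate 2. miR-467e read between 26.2 and 29.9 cycles in 10 mice and 40 in 10-month replicate 3. These 3 assays had 1 or 2 mice at 40 while every other well read before 30 cycles, a pattern found in 11 of all 517 assays (2.13%). The wells at 40 of those 11 assays lay in 10-month replicate 2 for 6 assays and in control replicate 2 for 4, the mice with the latest and second latest mean cycle. The other 3 wells lay in 3-month replicates 2 and 3 and in 10-month replicate 3, the mouse with the earliest mean cycle, and 2 of the 4 wells of the Sfmbt2 families were among them. In the reverse pattern, miR-297c read 22.6 cycles in 3-month replicate 1 and 40 in the other 10 mice, and 8 assays of the panel had a lone well of this kind, amplified before 30 cycles. Whether such wells are failed reactions was not tested.

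The miR-467 guide strands and miR-669a varied least among the 6 assays detected in every mouse. In control aortas miR-467a had levels of -2.03, -2.56, -1.58 and -1.83. At 3 months miR-467a was at -1.99, -2.08, -2.85 and -2.55, and at 10 months at -1.69, -2.35 and -2.47. The groups overlapped.
For miR-467b the levels were -1.47, -0.85, -0.66 and -0.58 in controls, -1.15, -0.75, -1.19 and -0.53 at 3 months and -0.65, -1.73 and -1.77 at 10 months. At 10 months 2 of 3 mice lay below every control, while the third lay among them. miR-467d, the dimmest of the 6, was at -5.60, -6.68, -5.69 and -6.20 in controls, -5.87, -6.16, -5.87 and -6.49 at 3 months and -5.76, -6.43 and -5.98 at 10 months. Its values in both diet groups lay within the range of the controls. The SD within groups was 0.41 for miR-467a, 0.45 for miR-467b, 0.40 for miR-467d and 0.42 for miR-669a, below the median of 0.56 over the 285 miRs detected in all mice.

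miR-669a was lower in the 10-month mice than in the controls without overlap, as were 9.35% of the 353 tested miRs, but did not pass limma. Its levels were -1.45, -1.55, -0.91 and -1.32 in controls and -2.70, -1.74 and -2.01 at 10 months. All 3 of the 10-month mice lay below every control. The 3-month levels of -2.23, -1.22, -1.21 and -1.60 overlapped both groups. Controls averaged -1.31 ± 0.28 (SD, n = 4) and 10-month mice -2.15 ± 0.49 (SD, n = 3), a 1.79-fold lower level. The log2 fold was -0.84 with a 95% interval from -1.63 to -0.05. The limma adjusted p over the 353 miRs was 0.248. Over the 14 other settings that kept every mouse its log2 fold ran from -1.20 to -0.60, and with 1 mouse left out from -1.05 to -0.57. Set against the median of all miRs, the fold ran from -0.94 to -0.77 over 13 of these 14 settings. It was -1.14 with no filter on detection. A new centre shifts all miRs alike, so settings that change only the centre could not move this second value. In bulk tissue, fewer cells of a type and less of a miR per cell cannot be told apart. The 2 endothelial markers were detected in every mouse, and their summed log2 level ran from 8.37 to 8.84 in controls and from 8.90 to 10.04 at 10 months. Of them miR-126-3p lay apart, at 8.21 to 8.69 in controls and 8.76 to 9.98 at 10 months, while the 10-month levels of miR-126-5p, 5.43 to 5.45, lay within the control range of 5.11 to 5.51. Their part in the result was not tested. The summed smooth muscle, leukocyte, erythroid, striated muscle, liver and neural markers overlapped between these 2 groups. Among single striated muscle markers, miR-1 ran from 0.83 to 2.52 in controls and from -0.77 to 0.19 at 10 months.

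**Figure D2:**
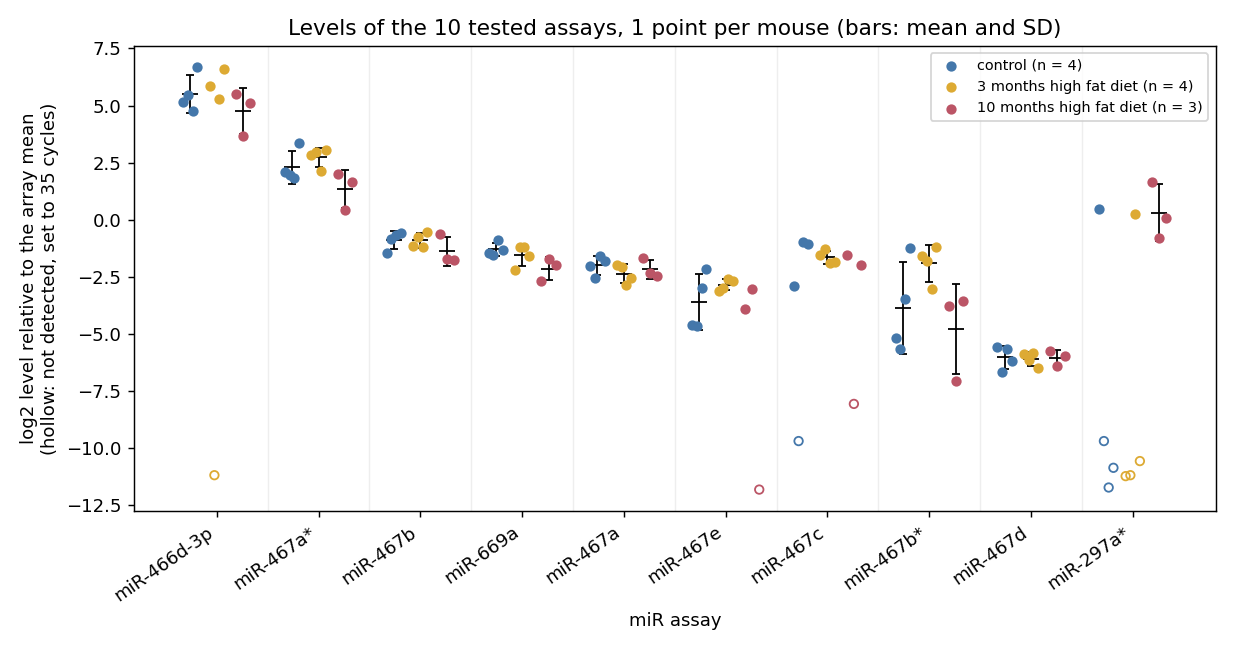
Log2 level relative to the array mean (vertical axis) of the 10 tested assays in control, 3-month and 10-month mice, 1 point per mouse. Bars give the mean and SD where every mouse of a group was detected, and hollow points are undetected wells set to 35 cycles. The 3 points of miR-669a at 10 months lie below its 4 control points, and the 4 points of miR-467a* at 3 months lie above its 3 points at 10 months.

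The star strands of miR-467a and miR-467b were lower at 10 than at 3 months without overlap, as were 6.8% of the 353 tested miRs, and neither passed limma. miR-467a* was at 2.81, 2.96, 2.11 and 3.05 at 3 months and at 2.00, 0.42 and 1.64 at 10 months. In controls miR-467a* was at 2.09, 1.94, 1.81 and 3.36, which overlapped both. The group means were 2.30 ± 0.72 (SD, n = 4), 2.73 ± 0.42 (SD, n = 4) and 1.35 ± 0.83 (SD, n = 3) in controls, at 3 and at 10 months. From 3 to 10 months the miR-467a* log2 fold was -1.38, a 2.61-fold lower level, with a 95% interval from -2.48 to -0.28 (limma adjusted p = 0.281). Referred to the small-RNA controls this fold was -0.48, and in the table normalized by the authors it was -0.80.
miR-467b* was at -1.61, -1.83, -3.04 and -1.19 at 3 months and at -3.78, -7.08 and -3.58 at 10 months. Controls spread over -5.18, -5.67, -3.46 and -1.23 and overlapped both diet groups. The log2 fold from 3 to 10 months was -2.90, with a 95% interval from -5.43 to -0.36 (limma adjusted p = 0.328). The SD of miR-467b* within groups, 1.65, was larger than or equal to that of 98.9% of the 285 miRs. Its lowest value came from 10-month replicate 2, at 34.0 cycles and so near the 35-cycle limit. Without that mouse, which had the latest cycles of the panel, the log2 fold between 10 and 3 months was -1.77 for miR-467b* and -0.93 for miR-467a*, and that of miR-467b* at 10 months against control turned from -0.93 to 0.21. None of these values passed limma. Every summed marker list that was detected overlapped between 10 and 3 months. Of the single markers, miR-143 of smooth muscle and miR-1 of striated muscle were lower at 10 months without overlap, and the leukocyte miR-142-3p and miR-142-5p and the endothelial miR-126-5p were higher without overlap. For miR-142-3p the level ran from 1.65 to 2.66 at 3 months and from 2.90 to 3.99 at 10 months. The part of these markers in the star strand values was not tested.

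miR-466d-3p had the earliest cycles of the families. Its levels were 5.16, 5.48, 4.75 and 6.69 in controls, 5.84, 5.27 and 6.59 in the 3 detected mice at 3 months and 5.52, 3.64 and 5.12 at 10 months. The detected values overlapped between groups. The opposite strand of the same hairpin, miR-466d-5p, was not detected in any of 11 mice. With the blank well set to 35 cycles the fitted log2 fold of miR-466d-3p at 3 months against control was -3.89 (limma adjusted p = 0.787), and with it left missing the fold was 0.38. The sign thus rested on 1 well. The log2 fold of miR-466d-3p at 10 months against control was -0.75. Between 10 and 3 months it was 3.14 as fitted and -1.14 with that well left missing.
miR-467c was at -2.93, -0.97 and -1.08 in 3 controls, -1.53, -1.29, -1.90 and -1.87 at 3 months and -1.53 and -1.97 in 2 mice at 10 months. Its fitted log2 folds of 2.02 for 3 months over control and -2.21 for 10 over 3 months became 0.01 and -0.10 with undetected wells left missing. At 10 months against control the fold was -0.19 as fitted and -0.09 with undetected wells left missing.
miR-467e was at -4.62, -4.65, -2.99 and -2.18 in controls, -3.15, -2.97, -2.62 and -2.68 at 3 months and -3.92 and -3.02 in 2 mice at 10 months. At 10 months against control its log2 fold was -2.65 as fitted and 0.14 with the undetected well left missing. Between 10 and 3 months these values were -3.40 and -0.62, and at 3 months against control the fold was 0.76. Detected values of both miRs overlapped between controls and the diet groups.

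miR-297a* was read in every 10-month aorta and in few others. It amplified at 21.9, 27.7 and 23.1 cycles in the 3 mice of 10 months. It was detected in 1 of 4 controls, at 23.6 cycles, and in 1 of 4 mice at 3 months, at 24.7 cycles, and all other wells read 40. Detected levels were 1.64, -0.82 and 0.07 at 10 months, 0.45 in the control and 0.24 at 3 months, so that they did not separate the groups. miR-297a* reached the 3 mice required for testing only in the 10-month group, where it was read most, so that its tests against that group are not independent of the filter. The fitted log2 fold at 10 months was 8.26 against control (95% interval 0.79 to 15.7, limma adjusted p = 0.236) and 8.49 against 3 months (limma adjusted p = 0.328). With undetected wells left missing these folds were -0.15 and 0.06, and they therefore describe detection and not level. At 3 months against control the fitted log2 fold was -0.23. Every amplified well of miR-297a* read before 30 cycles while its other wells read 40. Such a mix was found in 5 of the 18 assays (27.8%) and in 38 of all 517 (7.35%). Whether the miR-297a* wells at 40 are failed reactions was not tested.
miR-297b-5p was late wherever it was seen, at 30.9 and 30.5 cycles in control replicates 1 and 2, 31.98 in 3-month replicate 3 and 33.0 in 10-month replicate 2. It was not tested, since no group had 3 mice with a signal. miR-297a* and miR-297b-5p were seen together in 3 mice, control replicate 1, 3-month replicate 3 and 10-month replicate 2.

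The 3 comparisons ask how the families differ early and late on the diet. Of the 18 assays, 10 were detected in at least 3 mice of a group and entered the limma fit of 353 miRs. At 3 months against control 0 of 10 passed, as did 0 of 353 (0%), and 0 of 10 had an unadjusted p under 0.05, against 8.5% of the panel. In 0 of 10 did the groups stand apart without overlap, against 5.38% (2.55% with the diet group lower). At 10 months against control 0 of 10 passed, against 4.53% of the panel. At an unadjusted p under 0.05 there were 2 of 10, miR-297a* and miR-669a, against 17%. Over the assays that met the filter in more than 1 group, which leaves out miR-297a*, there was 1 of 9, against 17.9% of 324. In 1 of 10, miR-669a, the groups did not overlap, against 15.9% (9.35% lower). Between 10 and 3 months 0 of 10 passed, against 0% of the panel. At an unadjusted p under 0.05 there were 3 of 10, miR-467a*, miR-467b* and miR-297a*, against 13%. Without miR-297a*, as above, there were 2 of 9, against 11.7% of 324. In 2 of 10, miR-467a* and miR-467b*, the groups did not overlap, against 12.2% (6.8% lower). No assay passed in any of the 25 alternative settings either.

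The folds of the 6 assays detected in every mouse had intervals of very different width, narrow for the guide strands and miR-669a and wide for miR-467b*. At 3 months against control the log2 fold of miR-467a was -0.37 (95% interval -1.09 to 0.35), that of miR-467b -0.02 (-0.78 to 0.75) and that of miR-467d -0.06 (-0.76 to 0.64). miR-669a was at -0.26 (-0.99 to 0.47) and miR-467a* at 0.43 (-0.58 to 1.45). miR-467b* was at 1.97 (-0.38 to 4.32) and had the smallest p of the 10 in that comparison (limma adjusted p = 0.635). At 10 months against control miR-467a was at -0.17 (-0.95 to 0.61), miR-467b at -0.50 (-1.32 to 0.33) and miR-467d at -0.02 (-0.78 to 0.74). miR-467a* was at -0.95 (-2.05 to 0.15) and miR-467b* at -0.93 (-3.46 to 1.61). Between 10 and 3 months miR-467a was at 0.20 (-0.58 to 0.98), miR-467b at -0.48 (-1.30 to 0.35), miR-467d at 0.04 (-0.72 to 0.80) and miR-669a at -0.58 (-1.38 to 0.21). Relative to the array mean, a change of 2-fold either way thus lay outside the interval of miR-467d in all 3 comparisons.

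At 10 months the log2 fold against control was negative for 9 of the 10 tested assays, and for 49.6% of the panel. At 3 months 6 of 10 were negative (53% of the panel), and from 3 to 10 months 6 of 10 (45%). With the array median as centre, which lifts the median of all miRs at 10 months to 0.25, 6 of 10 were negative at 10 months. Under both centres 9 of 10 lay below the median of all miRs. A change of centre shifts all miRs alike and cannot alter this count. Other settings can, and it stayed at 9 of 10 with each block centred by itself or undetected wells left missing. It was 8 of 10 with quantile normalization and 7 of 10 with the replicate block. Without control replicate 1, control replicate 3 or 10-month replicate 3 it was also 7 of 10. Without 10-month replicate 2, 6 of 10 were negative and 6 of 10 lay below the median of all miRs. The median over the 10 was -0.63 at 10 months against control (0.0049 over all 353), -0.04 at 3 months (-0.05) and -0.53 between 10 and 3 months (0.06). Without 10-month replicate 2 the first of these was -0.14 and the last -0.21. When the small-RNA controls served as reference, the median of all miRs was -0.81 for 3 months over control and 0.97 for 10 over 3 months. Relative to the latter the median over the 10 assays was -0.59, a value that a change of reference alone cannot move. By itself the median over the 10 turned to 0.37. The deposited normalized values gave 0.05 between 10 and 3 months, and no filter, with all 18 assays, gave 0.21. Over the 14 settings that kept every mouse the median ran from -0.98 to -0.10 at 10 months against control and from -0.79 to 0.21 for 3 months. Both diet groups were set against the same 4 controls. These counts hold assays that share genes and a host transcript and are not independent.

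**Figure D3:**
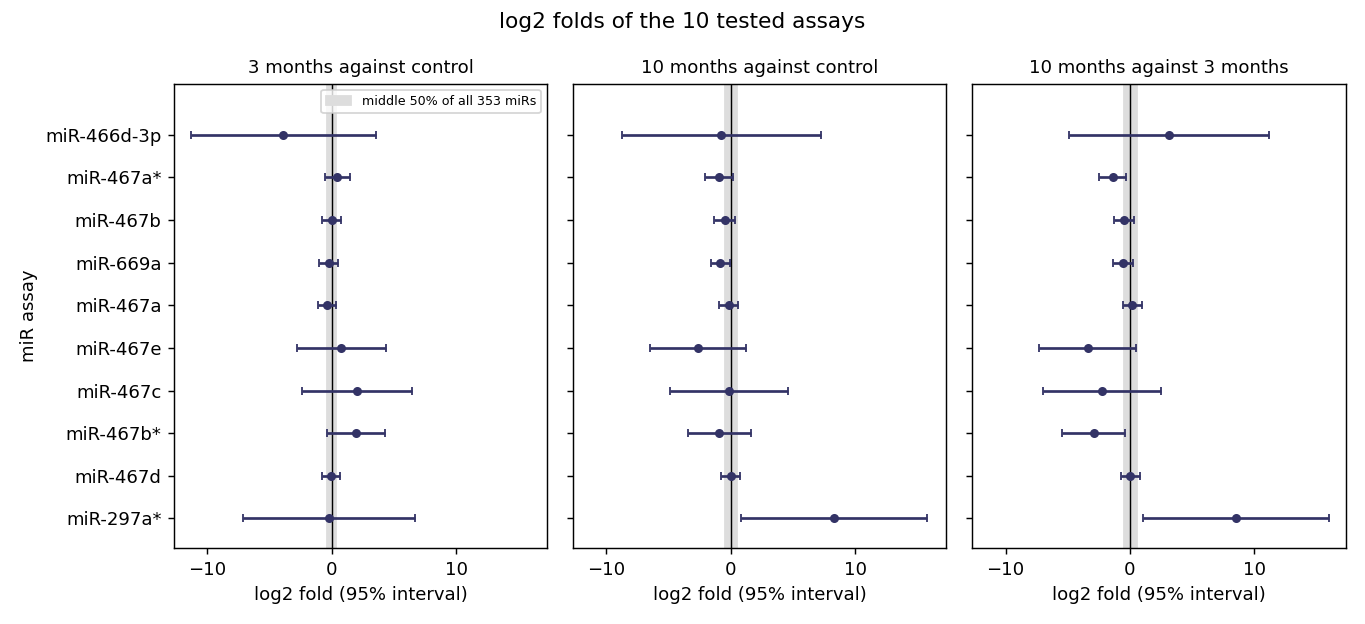
Log2 fold (horizontal axis) with its 95% interval for the 10 tested assays (vertical axis) in the 3 comparisons. Grey bands span the middle 50% of the 353 tested miRs. The interval of miR-669a lies below 0 at 10 months against control, those of miR-467a* and miR-467b* lie below 0 between 10 and 3 months, and that of miR-297a*, set by detection, lies above 0 in both.

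Both strands of a hairpin were read in all mice for miR-467a and miR-467b, so that the star strand can be set against its guide within a mouse. As deposited, miR-467a* came 2.77 to 5.60 cycles earlier than miR-467a in 11 of 11 mice, and miR-467b* came 0.45 to 5.35 cycles later than miR-467b in 11 of 11. Star and guide assays sat in different blocks of the panel, and the mean cycle of the second block was 1.77 to 3.16 later than that of the first. Each block was therefore centred by itself, which adds the gap between blocks in that mouse to each star minus guide value. The blocks hold different miRs, and whether the gap is technical was not tested. The size and sign of the centred values thus do not tell which strand was more abundant. The difference of miR-467a* from miR-467a was then 6.27, 6.99, 5.53 and 7.40 on the log2 scale in controls, 7.68, 8.20, 6.74 and 7.60 at 3 months and 5.87, 5.62 and 5.88 at 10 months. The 10-month mice lay below every 3-month mouse and within the range of the controls. Their means were 5.79 ± 0.15 (SD, n = 3) and 7.56 ± 0.60 (SD, n = 4), a difference of -1.77 (exact two-sided permutation p = 0.0571, 0.171 after Benjamini-Hochberg adjustment over 6 tests). Without centring, with minus the deposited cycle as the log2 level, the difference was -1.58 and the exact permutation p was 0.0286, the smallest possible for this pair of groups.
For miR-467b* against miR-467b the log2 difference was -1.56, -2.32, -0.66 and 1.55 in controls, 2.42, 2.08, -0.07 and 1.35 at 3 months and -0.94, -2.50 and -0.03 at 10 months. Only 1 of the 10-month mice, at -0.03, overlapped the 3-month range. The means differed by -2.60 between 10 and 3 months (exact two-sided permutation p = 0.0857, adjusted 0.171) and by 2.19 between 3 months and control (p = 0.0857 by the same exact test, adjusted 0.171). The other 3 tests gave exact p from 0.114 to 0.743, and the smallest p possible was 0.0286. Among 49 star and guide pairs read in all mice, that of miR-467b ranked 4 and that of miR-467a 29 in the spread of the difference within groups (SD 1.38 and 0.63, median of the pairs 0.71).

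**Figure D4:**
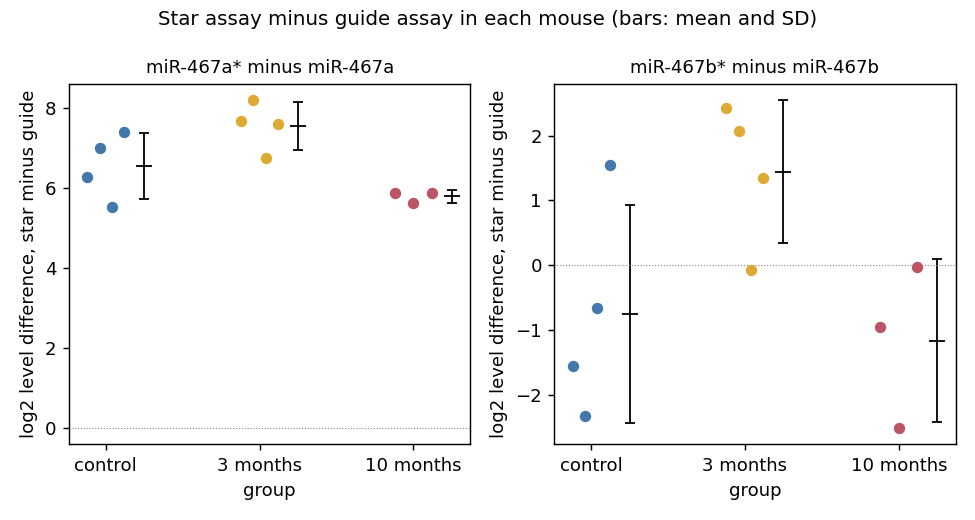
Log2 level of the star assay minus that of the guide assay (vertical axis) in each mouse of the 3 groups (horizontal axis), for miR-467a and for miR-467b, with each block of the panel centred by itself. Bars give the mean and SD. For miR-467a the 10-month points lie between 5.62 and 5.88, below all 3-month points. For miR-467b the control points run from -2.32 to 1.55. The sign of a difference depends on the centring, and as deposited miR-467b* came later than miR-467b in every mouse.

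The assays did not follow one another closely across mice, although nearly all their genes lie in one host gene. Over the 11 mice, with each block centred by itself, the 15 pairs of the 6 assays detected in all mice had a median Pearson r of 0.11 (from -0.21 to 0.86). Within the first block the 6 pairs of miR-467a, miR-467b, miR-467d and miR-669a had a median r of 0.18, and all pairs of that block a median of -0.0052. The miRs of all these pairs were centred on their own mean in each mouse. This draws the median over all pairs toward 0, so that it is a weak yardstick. The highest r, 0.86, was that of miR-467a* with miR-467b*, and it was 0.79 after group means were removed. The guide miR-467a with its own star strand had an r of 0.11 (0.45 within groups) and miR-467b with its own of 0.54 (0.56 within groups). miR-669a had r from -0.05 to 0.25 with the other 5. The 11 points share RNA sample, array and diet group, and these values are descriptions.

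Other rodent miR clusters on the panel are set beside the Sfmbt2 families for detection. Of 13 assays of the miR-290 to miR-295 cluster, which is active in early embryo and placenta, 0 were detected in all mice and 7 in none. Of 20 assays of the X-linked cluster of rodent testis, 1 was detected in all mice and 11 in none. The Sfmbt2 families stood at 6 and 6 of 18. No test of this difference was made, since assays are not replicates. Of these clusters 2 and 5 assays were tested, and limma called 0 of them in each of the 3 comparisons.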

How the data were processed

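Mature miRs were assayed by PCR, with RNA prepared by a mirVana kit, per the labels' protocols. No source used here names the instrument, the reagents or the software. Of the 2 tables that the authors deposited, the one used holds threshold cycles on a log2 scale (1 cycle per doubling, more template giving a lower value), with 335 and 182 miR assays in 2 blocks and no normalization. Their other deposited table equals, within 5e-05, the cycle minus the mean of snoRNA202 and snoRNA429 on the same log2 scale, as found by setting both side by side.

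Wells at 35 cycles or later were set to 35, and minus the cycle number was centred on the mean of 285 miRs detected in all mice. The 353 miRs detected in at least 3 mice of a group were fitted in 1 model of 3 groups with limma 3.58.1 in R 4.3.3 (two-sided tests, Benjamini-Hochberg adjustment over the 353, threshold 0.05). Simulated data had normal noise, no limit for undetected wells and log2 folds of 2 either way. On them the fit returned the folds put in on average, and called most but not all of them. Smaller folds were not simulated, so this does not tell how many of those would be called. The few mice limit the precision, with a median SE of a log2 fold of 0.46 to 0.49 over all miRs. Over the 10 tested members the median SE was larger, 0.76 to 0.82. Nothing in the labels says whether litters or cages were shared. Star minus guide differences were compared by exact permutation over mice. The members, the lists and the tests were chosen with earlier results of these data known. All tested members are named with their folds. Values of every mouse are given for members detected in all mice, for the 3 with the smallest p per comparison and for those detected in every mouse of a group and in at least 2 fewer mice of another. Alternatives were other centring (array median, control assays, quantile, none, each block, deposited values), other treatment of undetected wells (common floor, missing, a limit of 32 cycles), other filters, 2 groups only, the replicate block and each mouse left out. Leaving missing the lone wells at 40 was chosen after seeing the data. The planned search for other assays sharing a seed with a member was not made.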

Additional observations from a re-analysis of the deposited data

Results flagged for a closer look

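Dixon's gap test was run on each group of 4 mice in which a member assay was detected and on the star minus guide differences. In 27 such groups of 4 values, 5 single values stood apart from the other 3 of their group at the 95% critical value. The chance of about 1 in 20 groups holds for normally spread values. It does not hold here, since all 5 set detected wells against wells at the limit. In 4 of the 5 the value was the only detected well of its group, against wells at 40 set to the limit. These were miR-297a* in control replicate 1, at a level of 0.45, and in 3-month replicate 3, at 0.24, miR-297b-5p in 3-month replicate 3, at -7.05, and miR-297c in 3-month replicate 1, at 1.12. miR-466d-3p in 3-month replicate 2 was at -11.20, the value of a well at 40 set to the limit, beside 3 mice between 5.27 and 6.59.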

How the results depend on the processing

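No member assay passed limma in any comparison under 14 settings that kept every mouse or 11 that left out 1 mouse, with a smallest limma adjusted p of 0.0602, for miR-297a* at 10 months against control without control replicate 1. That mouse was the only control with a miR-297a* signal, so that without it every control stood at the limit. miR-297a* also met the filter only through the 10-month group, so this p is not independent of filter and limit. Of 738 fold values under the 25 alternative settings 52 had the other sign, none past the threshold, and the cause was not tested except where undetected wells were left missing. At 3 months against control these were miR-467a* at -0.32 (control assays), miR-467d at 0.45 (quantile) and miR-466d-3p at 0.38 (undetected wells missing, and equally lone wells missing). Leaving out 1 mouse gave -0.21 to 0.092 for miR-467b, -0.27 to 0.089 for miR-467d, -3.03 to 2.58 for miR-297a* and -5.55 to 0.38 for miR-466d-3p. At 10 months against control miR-467a was at 0.069 (array median) and 0.050 (deposited values), and miR-467c at 0.055 (array median), 0.053 (32 cycles) and 0.21 (replicate block). miR-467d was at 0.22 (array median), 0.13 (control assays), 0.0069 (quantile), 0.20 (deposited values) and 0.42 (32 cycles). miR-467e was at 0.14 and miR-297a* at -0.15 with undetected wells missing, miR-467e also at 0.14 with lone wells missing, and miR-466d-3p at 0.27 with the replicate block. Leaving out 1 mouse gave -2.19 to 1.92 for miR-467c, -0.22 to 0.17 for miR-467d, -4.27 to 0.14 for miR-467e and -1.55 to 0.21 for miR-467b*. Between 10 and 3 months miR-467b was at 0.43 and miR-669a at 0.32 with the control assays, miR-467b at 0.10 with deposited values, miR-467a at -0.10 and miR-467d at -0.26 without normalization, miR-467d at -0.44 (quantile) and -0.054 (replicate block), and miR-466d-3p at -1.14 with undetected or lone wells missing. Leaving out 1 mouse gave -0.042 to 0.35 for miR-467a, -0.11 to 0.21 for miR-467d and -1.13 to 4.79 for miR-466d-3p.

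The replicate block left 0 member assays called in each comparison and a member median of -0.27 at 10 months against control, and it took the panel's calls there from 16 to 6. The labels do not say what a shared replicate number stands for, and whether it marks a pairing was not tested. Deviations of same-numbered mice correlated from -0.36 to 0.47. All 4 mice of 3 months, but 1 of 3 at 10 months, correlated best with the control of their own number. The panel's calls at 10 months against control were 0 with the control assays, the deposited values, no normalization or 2 groups only, 1 with no filter and 29 among miRs detected in every mouse. Assays with undetected wells carry folds set by the limit.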
